A study of Mus musculus with 2 samples.

Results

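Levels of 8 genes were described in single cortical myeloid cells of an amyloid mouse model: the anaphylatoxin receptors C3ar1 and C5ar1, the complement receptor 3 chains Itgam and Itgb2, and the integrin chains Itgav, Itgb5, Itga6 and Itgb1. They were taken by symbol from the 31053 genes listed in the count matrices, and all 8 were found. They are receptors and integrin chains; none of them is a complement regulator, and regulators are given below from a separate list. The study asked how meningeal lymphatic ablation bears on the cortex of male 5xFAD hemizygous mice, which carry human amyloid precursor protein and presenilin transgenes driven in neurons, on a C57BL/6J background. In the control group, Visudyne, a photosensitiser, was given alone (5 uL, into the cisterna magna) from the age of 4 months. In the photoconversion group the same injection was followed by 5 steps of transcranial 689-nm red light, and both procedures were repeated after 3 weeks. Tissue was taken at 5.5 months, another 3 weeks later. All mice thus carried the transgenes and received Visudyne. Live Ly6G- CD45+ CD11b+ single cells of the cortex were sorted and pooled from 3 mice into 1 library per group. There was therefore no replicate check: every difference is one between these libraries or between cells within them. All intervals are 95% intervals that cover counting error only, and they are exact except where given for a ratio of ratios.

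Complement is a cascade of plasma and tissue proteins that tags surfaces with C3 fragments and releases the small peptides C3a and C5a. The peptides act on G-protein-coupled receptors, while the tag iC3b is bound by complement receptor 3, the integrin formed by Itgam (CD11b) and Itgb2 (CD18), through which microglia take up tagged material, synapses included. Integrins are pairs of an alpha and a beta chain that hold cells to matrix or to other cells and signal in both directions. Microglia near amyloid plaques are known to lose homeostatic genes such as the purinergic receptor P2ry12 and to gain genes such as Cst7, which encodes cystatin F.

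The promoter sequences of 2 complement receptor genes, Itgam and C3ar1, are shown because both genes take part in the comparison between cell classes below, and because the core GAGGAA bound by PU.1, the transcription factor that myeloid cells depend on, can be looked for in them. Each run is the 250 bases before the RefSeq start, read 5' to 3' on the gene's strand in GRCm38.p6 (mm10), with GAGGAA and its reverse complement TTCCTC in capitals. They lie at chr7:128062390-128062639 (plus strand) for Itgam and chr6:122856158-122856407 (minus strand) for C3ar1.
Itgam: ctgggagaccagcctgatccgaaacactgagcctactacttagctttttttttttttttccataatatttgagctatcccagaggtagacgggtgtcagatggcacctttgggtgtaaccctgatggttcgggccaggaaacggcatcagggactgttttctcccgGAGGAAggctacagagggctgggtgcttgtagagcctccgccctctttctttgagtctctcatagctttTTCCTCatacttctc
C3ar1: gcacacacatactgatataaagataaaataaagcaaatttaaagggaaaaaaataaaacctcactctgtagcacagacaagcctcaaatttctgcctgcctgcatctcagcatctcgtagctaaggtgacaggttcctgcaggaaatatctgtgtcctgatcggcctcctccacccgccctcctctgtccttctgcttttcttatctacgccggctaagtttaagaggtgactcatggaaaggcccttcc
The Itgam window held the core on each strand, beginning 84 and 15 bases before the start. The C3ar1 window held these letters on neither strand, nor did that of C5ar1. The C5ar1 window is not printed, because the RefSeq start lies inside the GENCODE span of the gene and most of the window with it. Promoters of 6 of the 8 members were found in the RefSeq table, and 3 of these 6 (Itgam, Itgav and Itgb1) held the core, against 23.3% of 32851 promoter windows of the same length. A match is a description of the letters in this window only.

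The control library held 555 kept cells with a median of 2670 UMIs (unique molecular identifiers, each standing for 1 captured RNA molecule), and the photoconversion library 317 with a median of 3410. Each cell was classed by its own UMIs as Cst7-dominant (more Cst7 than P2ry12), P2ry12-dominant or tied. Cst7-dominant cells were 207 of the control cells (37.3%, 33.3 to 41.5%) and 157 of the photoconversion cells (49.5%, 43.9 to 55.2%). P2ry12-dominant cells numbered 290 and 133, and 58 and 27 cells were tied, of which 45 and 21 had a UMI of neither gene. The cut is a range and not a boundary between types: 57 of 555 and 31 of 317 cells lay 1 UMI from it. Cst7-dominant cells were deeper, with medians of 4655 against 2206.5 UMIs in the control and 5852 against 2739 after photoconversion. All 8 microglia markers were detected in every class of both libraries. Neutrophil markers had 5 and 9 UMIs in all kept cells, lymphocyte markers 5 and 1 and red blood cell markers 0 and 0. Monocyte markers had 184 and 29 UMIs. Summed, they were higher in P2ry12-dominant than in Cst7-dominant cells, at 52.4 against 3.41 CPM in the control and 44.9 against 4.58 CPM after photoconversion. Most of this was Plac8, with 35 of 44 and 20 of 21 UMIs in P2ry12-dominant cells. Ly6c2 had 2 UMIs in each of these classes in the control. After photoconversion it had 2 in Cst7-dominant and 0 in P2ry12-dominant cells. Ccr2 stood at 1.36 CPM in Cst7-dominant and 7.14 CPM in P2ry12-dominant control cells, and at 2.29 and 2.14 CPM after photoconversion. Chil3 was at 0 in the photoconversion library. Monocytes also carry C5ar1, Itgam and Itgb2. Without cells that had 2 or more UMIs of border macrophage, monocyte, neutrophil or lymphocyte markers, a setting chosen after seeing the data, the class ratios described below were 0.573 and 0.385 for C5ar1, 0.726 and 0.816 for Itgam and 0.892 and 0.729 for Itgb2. Border macrophage markers stood at 49.1 CPM (the group's UMIs of a gene, scaled to 1000000 UMIs in all) in Cst7-dominant and 11.9 CPM in P2ry12-dominant control cells, with Lyve1 at 0 in both. After photoconversion they stood at 8.40 and 2.14 CPM, with Cd163, Lyve1, F13a1 and Cbr2 at 0. Of 27 barcode strings listed in both libraries, 0 were kept cells in both.

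The anaphylatoxin receptors had lower levels in Cst7-dominant than in P2ry12-dominant cells of each library, and C5ar1 had the lowest class ratio of the 8 members in each. C3ar1, the receptor for C3a (chromosome 6, 122847138 to 122856161, minus strand, GENCODE coordinates on mm10), stood at 204 CPM in Cst7-dominant and 262 CPM in P2ry12-dominant control cells. After photoconversion it stood at 179 and 317 CPM. The ratio of Cst7-dominant over P2ry12-dominant cells was 0.781 (0.654 to 0.934) in the control and 0.564 (0.457 to 0.698) after photoconversion. In either library P2ry12-dominant cells were thus the higher class, and neither interval reached 1.

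C5ar1, the receptor through which C5a attracts and activates myeloid cells (chromosome 7, 16246743 to 16259540, minus strand), stood at 89.3 CPM in Cst7-dominant and 150 CPM in P2ry12-dominant control cells. After photoconversion its values were 59.5 and 152 CPM. The P2ry12-dominant levels of both libraries were nearly equal, and the Cst7-dominant levels lay below them in each. The class ratio was 0.595 (0.463 to 0.767) in the control and 0.392 (0.281 to 0.549) after photoconversion. In Cst7-dominant cells C5ar1 rested on few cells: the 10 richest held 47.3% of its UMIs in the control, where 1 cell had 20 of 131, and 53.8% after photoconversion. The 10 richest P2ry12-dominant cells held 26.2% in the control and 49.3% after photoconversion. Without the 10 richest cells of each class the ratios were 0.443 and 0.360, lower than with them.

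The chains of complement receptor 3 also had lower levels in Cst7-dominant cells, by a smaller margin than C5ar1. Itgam, the CD11b chain (chromosome 7, 128062640 to 128118491, plus strand), was itself a marker of the sort, so cells low in its protein were not collected. It stood at 177 CPM in Cst7-dominant and 246 CPM in P2ry12-dominant control cells, a ratio of 0.719 (0.597 to 0.868). After photoconversion the values were 199 and 246 CPM, a ratio of 0.810 (0.648 to 1.02) whose interval reached 1. Its level in P2ry12-dominant cells was the same to the digits given in both libraries. Gm49368 overlaps Itgam on the same strand, so the counting could split reads between them.

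Itgb2, the CD18 chain shared by the leukocyte integrins (chromosome 10, 77530252 to 77565708, plus strand), stood at 269 CPM in Cst7-dominant and 308 CPM in P2ry12-dominant control cells. After photoconversion it stood at 202 and 276 CPM. Both photoconversion values lay under their control counterparts, and the Cst7-dominant photoconversion level was the lowest of the 4. The class ratio was 0.874 (0.745 to 1.03) in the control and 0.731 (0.590 to 0.909) after photoconversion, so in the control the interval included 1. Itgb2 turned above 1 in the control with 2 other scalings (1.07 with edgeR TMM and 1.09 with DESeq2 median-of-ratios).

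Itgax (CD11c), another alpha chain that pairs with Itgb2 and binds iC3b, lay on the opposite side. It stood at 147 CPM in Cst7-dominant and 14.3 CPM in P2ry12-dominant control cells, a ratio of 10.3 (5.78 to 20.3). After photoconversion the values were 160 and 15.0 CPM, with a ratio of 10.7 (5.11 to 27.0). Of these alpha partners of Itgb2, Itgam thus had class ratios under 1 and Itgax above 1 in each library.

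**Figure D1:**
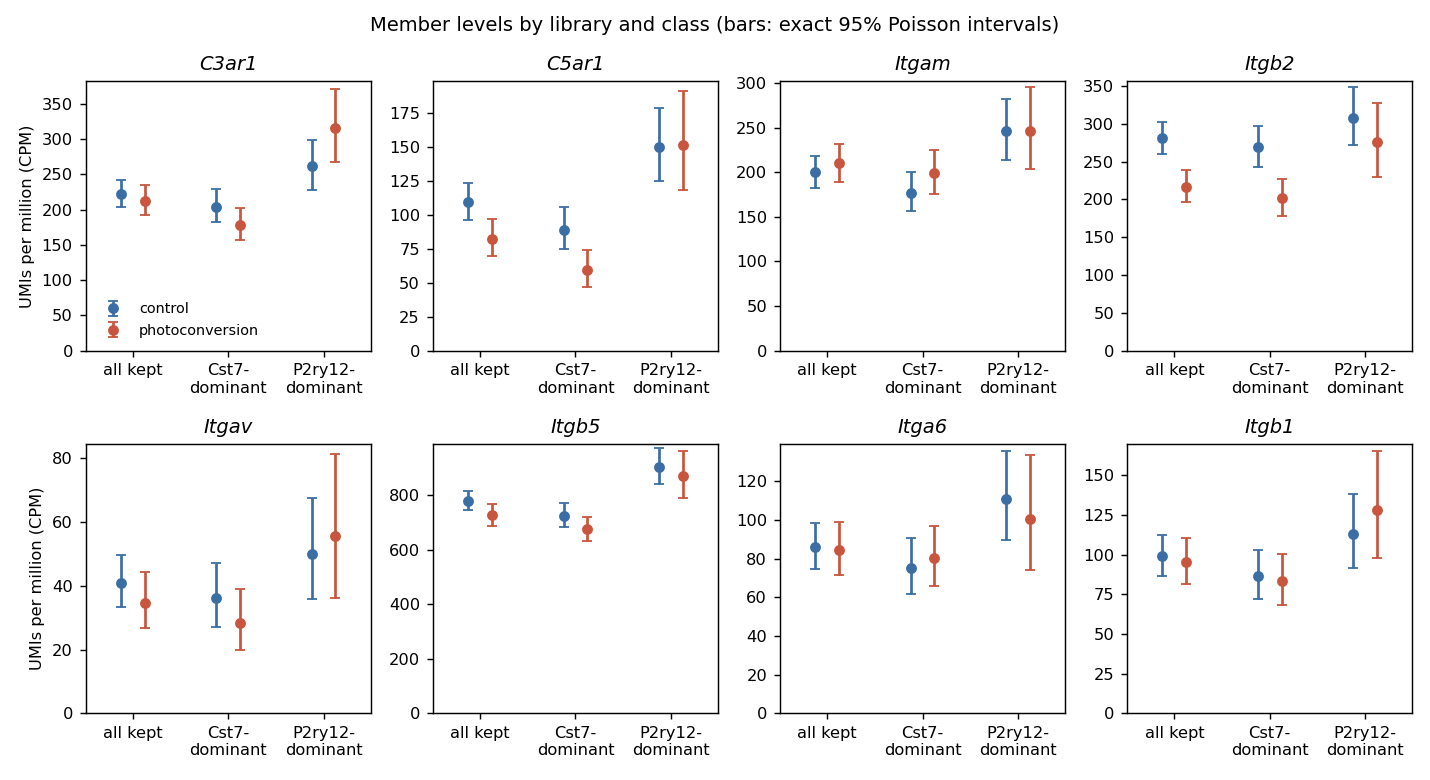
Level of each member in CPM (vertical axes, starting at 0) in all kept, Cst7-dominant and P2ry12-dominant cells, with 1 point per library and exact 95% Poisson intervals as bars. For each member the P2ry12-dominant points of both libraries lie above the Cst7-dominant points of the same library, as for C5ar1 with 150 against 89.3 CPM in the control and 152 against 59.5 CPM after photoconversion.

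The vitronectin receptor chains followed the same order. Itgav, the alpha v chain that pairs with several beta chains and takes part in the activation of latent transforming growth factor beta (chromosome 2, 83724397 to 83806916, plus strand), had few UMIs, 99 in the control and 63 after photoconversion. It stood at 36.1 CPM in Cst7-dominant and 49.99 CPM in P2ry12-dominant control cells, and at 28.2 and 55.6 CPM after photoconversion. The Poisson intervals of the classes overlapped in each library. The class ratio was 0.723 (0.473 to 1.11) in the control and 0.508 (0.299 to 0.874) after photoconversion. There are 2 annotated features on the strand opposite to Itgav, and whether the counting used strand is not given in the sources used here.

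Itgb5, the beta 5 chain whose alpha partner is alpha v (chromosome 16, 33829665 to 33949338, plus strand), had 1889 UMIs in the control and 1321 after photoconversion, the most of any member, and so the narrowest intervals. It stood at 726 CPM in Cst7-dominant and 906 CPM in P2ry12-dominant control cells, and at 675 and 873 CPM after photoconversion. The class ratios were close to each other, 0.802 (0.730 to 0.881) and 0.773 (0.687 to 0.872), and neither interval reached 1. The order of the 4 levels was P2ry12-dominant control, P2ry12-dominant photoconversion, Cst7-dominant control and Cst7-dominant photoconversion, and the intervals of libraries overlapped within each class. With median-of-ratios scaling the control ratio turned to 1.001.

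The laminin and matrix receptor chains had the same direction with wider intervals. Itga6, the alpha chain of laminin receptors (chromosome 2, 71745616 to 71858416, plus strand, with 2 predicted genes on its own strand inside the span), stood at 74.98 CPM in Cst7-dominant and 111 CPM in P2ry12-dominant control cells, a ratio of 0.677 (0.509 to 0.903). After photoconversion it had 80.2 and 101 CPM, for a ratio of 0.797 (0.560 to 1.15). The photoconversion direction did not hold in every setting: Itga6 turned to 1.20 when cells were thinned to 1000 UMIs, to 1.18 without the 10 richest cells of each class and to 1.37 with classes assigned after thinning.

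Itgb1, the common beta chain of receptors for laminin, collagen and fibronectin (chromosome 8, 128685654 to 128733200, plus strand), stood at 86.6 CPM in Cst7-dominant and 113 CPM in P2ry12-dominant control cells. After photoconversion it stood at 83.2 and 128 CPM. The class ratio was 0.766 (0.582 to 1.01) in the control and 0.648 (0.469 to 0.904) after photoconversion, with P2ry12-dominant cells higher in both. Endothelial cells express both Itga6 and Itgb1, and endothelial and mural markers differed between classes in opposite directions. They stood at 83.2 CPM in Cst7-dominant and 346 CPM in P2ry12-dominant control cells, and at 228 and 17.1 CPM after photoconversion, where Cldn5, Flt1, Rgs5, Pdgfrb and Vtn were at 0 in P2ry12-dominant cells. Without the 17 control and 16 photoconversion barcodes in which markers of endothelial, mural, glial or neuronal cells outnumbered microglia markers, the class ratios of Itga6 were 0.700 and 0.807 and those of Itgb1 0.774 and 0.650.

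Set against all genes, the direction of the members was common and its size moderate. All 8 members had a class ratio under 1 in the control, as had 66.8% of tested genes, and all 8 after photoconversion, as had 59.2%. The same 8 were under 1 in both libraries, as were 51.4% of the 3377 genes with at least 50 UMIs over both classes in each library. C5ar1 was the single member at least 1.5-fold lower in both libraries, a size passed by 19.8% of those genes. In the control alone 1 member passed it (C5ar1; 32.2% of 4314 genes), and after photoconversion 4 (C3ar1, C5ar1, Itgav and Itgb1; 27.6% of 3422 genes). No member was 1.5-fold higher in Cst7-dominant cells of either library, against 11.3% of genes in the control, 13.6% after photoconversion and 8% in both. The median log2 class ratio of the members was -0.43 in the control, beside -0.29 over all tested genes, and -0.54 after photoconversion, beside -0.15. Members with a ratio under the all-gene median numbered 7 of 8 in the control, with Itgb2 the exception, and 8 of 8 after photoconversion.

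The all-gene median depended on the scaling. TMM moved it by 0.30 in the control and 0.23 after photoconversion, and the members moved by the same amount, since a scaling factor applies to every gene alike. Their median lay 0.14 and 0.38 under that of all genes on the log2 scale, whatever the factor. With TMM 7 of 8 members had a class ratio under 1 in both libraries, against 35.1% of all genes, and with median-of-ratios 6 of 8, against 34.3%. With these scalings 0 members were at least 1.5-fold lower in both libraries, against 10.6% and 10.2% of all genes. C5ar1 kept a ratio under 1 in both libraries in all 13 alternatives, from 0.443 to 0.790 in the control and from 0.186 to 0.463 after photoconversion.

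**Figure D2:**
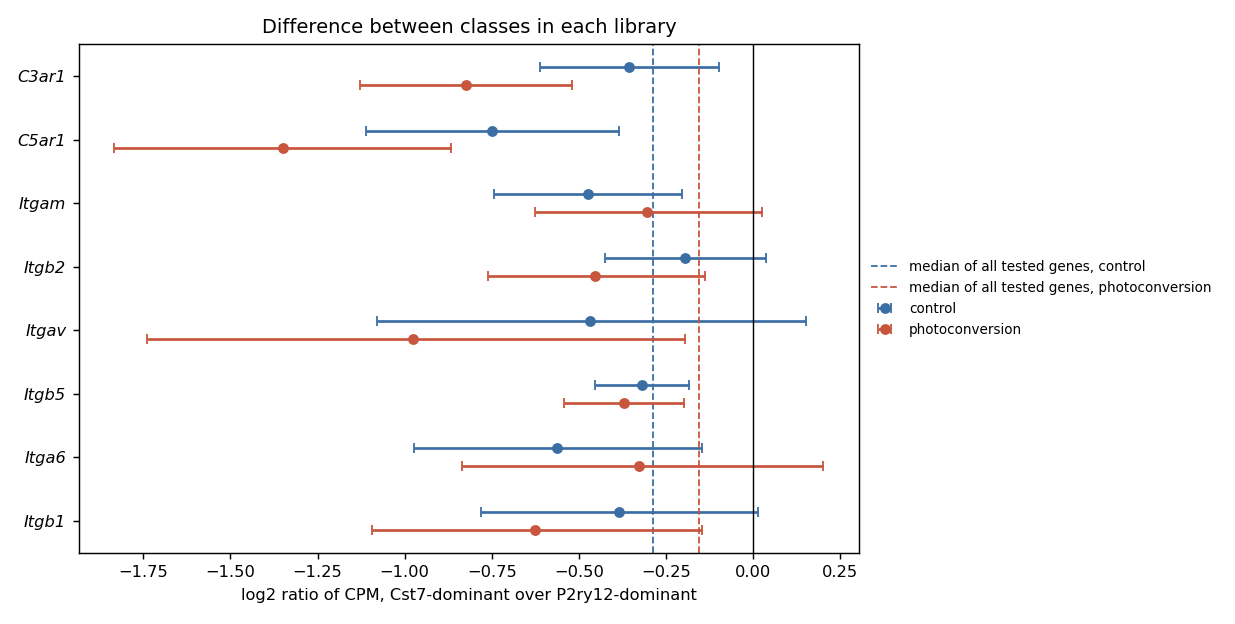
Log2 ratio of CPM in Cst7-dominant over P2ry12-dominant cells (horizontal axis) for each member (vertical axis), with 1 point per library, exact 95% intervals as bars and dashed lines at the median of all tested genes (-0.29 in the control and -0.15 after photoconversion). All points lie left of 0, and C5ar1 lies farthest left in both libraries.

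**Figure D3:**
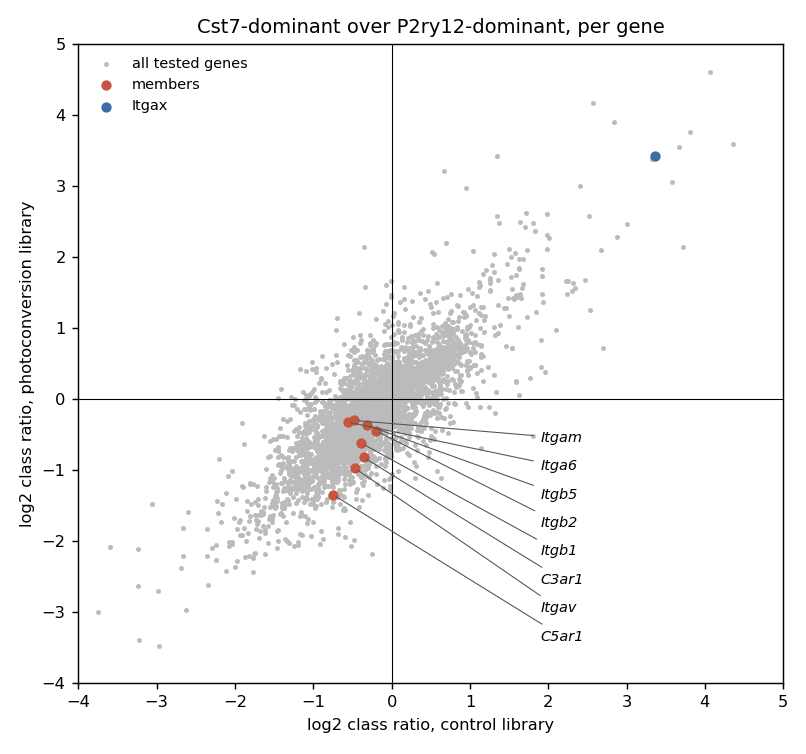
Log2 class ratio of each gene in the control library (horizontal axis) and in the photoconversion library (vertical axis), with 3376 genes as grey points, the 8 members in red and Itgax in blue. The members lie in the lower left, where both ratios are under 0, within the grey cloud, and Itgax lies in the upper right.

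Because the classes differed in depth, detection was also compared after every cell was thinned to 1000 UMIs, which left out 116 control and 45 photoconversion cells. Itgb5 then had a UMI in 48.6% of Cst7-dominant (41.2 to 56.1%) and 59.9% of P2ry12-dominant control cells (53.3 to 66.3%), and in 45.8% (37.4 to 54.3%) and 58.0% (48.6 to 67.0%) after photoconversion. C5ar1 had a UMI in 7.10% (3.84 to 11.8%) and 10.3% (6.74 to 15.0%) in the control, and in 2.82% (0.773 to 7.06%) and 13.4% (7.89 to 20.9%) after photoconversion. The P2ry12-dominant share was the higher one for both genes in both libraries, with overlapping intervals except for C5ar1 after photoconversion. Itgam was detected in 14.2% of Cst7-dominant against 21.98% of P2ry12-dominant control cells and in 14.1% against 28.6% after photoconversion. The corresponding shares were 12.02% against 23.3% and 17.6% against 21.8% for C3ar1, whose control intervals did not overlap, and 19.7% against 25% and 15.5% against 27.7% for Itgb2. Itgb1 had 8.20% against 13.4% and 4.93% against 16.0%, and Itgav 3.28% against 4.74% and 3.52% against 7.56%. Itga6 was the exception, with 4.92% against 11.6% in the control but 6.34% against 5.88% after photoconversion. Unthinned, the shares over all kept cells ran from 13.2% (Itgav) to 73.7% (Itgb5) in the control and from 15.1% to 77.3% after photoconversion.

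As a reading of free RNA, the barcodes rich in non-microglial markers were examined. Their median depth was 801 UMIs in the control and 880.5 after photoconversion, below the 2670 and 3410 of all kept cells. C3ar1, C5ar1 and Itgb2 had 0 UMIs in these 17 control and 16 photoconversion barcodes, and Itgam had 0 and 1; a count of 0 limits the share of such barcodes with a UMI to 17.6% and 18.8% when taken as 3 barcodes and to 19.5% and 20.6% by the exact interval, so this background was set only loosely. Itgb5 had 5 and 2 UMIs there (134 and 83.0 CPM), Itgb1 5 and 4 (134 and 166 CPM), and Itga6 4 and 1 (107 and 41.5 CPM). Barcodes with fewer than 200 genes, by contrast, held C3ar1 at 116 and 113 CPM, Itgb2 at 232 and 258 CPM and Itgb5 at 640 and 443 CPM. The level of free RNA was not measured. Counted over the members, a thinned Cst7-dominant cell had none of the 8 in 30.6% of control and 27.5% of photoconversion cells, against 15.1% and 12.6% of P2ry12-dominant cells. Cells with 3 or more members were 10.9% against 24.1% in the control and 6.34% against 21.8% after photoconversion.

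**Figure D4:**
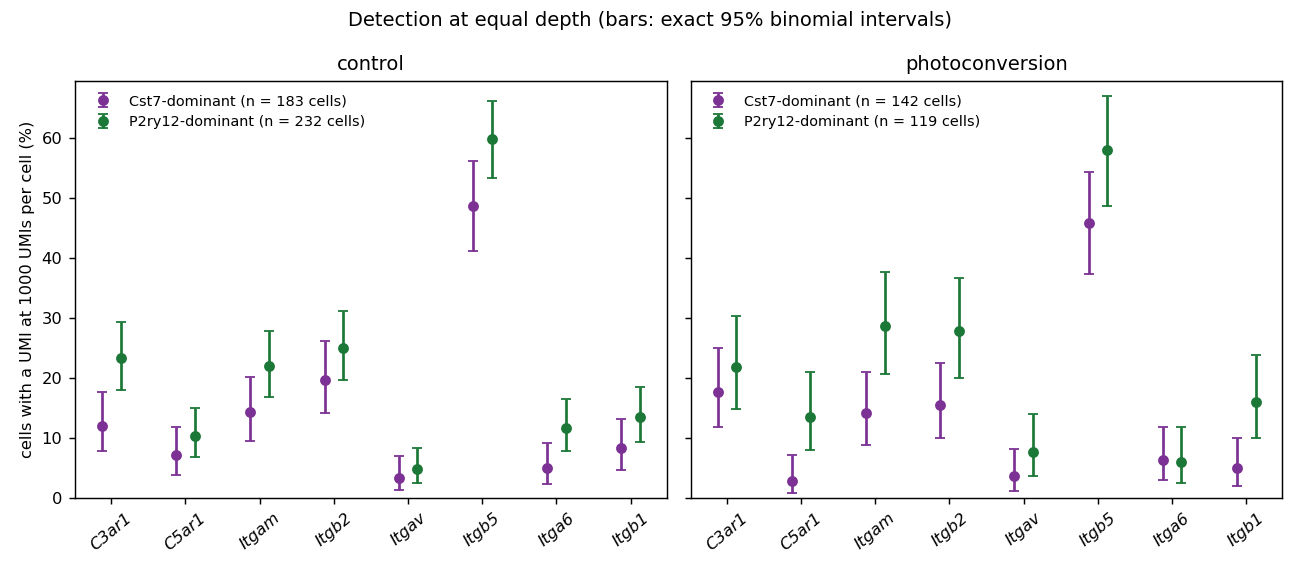
Share of cells with a UMI of each member after thinning to 1000 UMIs per cell (vertical axis, in percent, starting at 0), in Cst7-dominant and P2ry12-dominant cells of each library, with exact 95% binomial intervals as bars. The P2ry12-dominant point is the higher one for each member except Itga6 after photoconversion (6.34% against 5.88%).

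The order was also read in cells of like depth. In cells of 2000 to 8000 UMIs, where median depths were 3658.5 and 4090 in the control classes and 3837 and 3347 in the photoconversion classes, all 8 members again had ratios under 1 in both libraries, as had 48.5% of all genes. C5ar1 stood at 0.590 and 0.290 and Itgam at 0.474 and 0.467, the 2 members of 8 at least 1.5-fold lower in both, against 21.5% of all genes. In that band the members' median lay 0.02 under the all-gene median in the control and 0.92 under it after photoconversion on the log2 scale.

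By their median, the members differed less between the libraries than between the classes. For Itgb2, however, the library ratio of 0.772 lay farther from 1 than its control class ratio of 0.874. Over all kept cells, 7 of 8 members had a lower value after photoconversion, as had 59.6% of 6256 tested genes, and no member differed by 1.5-fold, against 3.1% of genes higher and 6.51% lower. The members' median log2 ratio was -0.083, beside -0.070 over all tested genes. Itgb2 stood at 281 CPM (260 to 303) in the control and 217 CPM (196 to 239) after photoconversion, a ratio of 0.772 (0.680 to 0.875). C5ar1 stood at 109 CPM (96.6 to 123) and 82.6 CPM (69.9 to 96.9), a ratio of 0.755 (0.614 to 0.926). The photoconversion value was lower for both genes, whose intervals did not overlap for Itgb2 and did for C5ar1.

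The remaining members had library ratios from 0.849 to 1.05, and the wider of their intervals do not show that the libraries were equal. C3ar1 had 222 CPM in the control library and 213 CPM in the other, for a ratio of 0.955 (0.836 to 1.09), and Itgam had 200 and 210 CPM, for a ratio of 1.05 (0.916 to 1.20). Itgb5 had 780 and 727 CPM, for a ratio of 0.933 (0.869 to 1.001). Itgav, Itga6 and Itgb1 had ratios of 0.849 (0.609 to 1.18), 0.981 (0.791 to 1.21) and 0.962 (0.786 to 1.17). The intervals of all 6 included 1, which for Itgb5 lay at its upper end.

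Because the Cst7-dominant share differed between the libraries, the same ratio was taken within each class. In Cst7-dominant cells Itgb2 had a ratio of 0.749 (0.638 to 0.877) and C5ar1 one of 0.667 (0.497 to 0.889), and 6 of 8 members were under 1, as were 52% of 4481 genes. Itgam there had a ratio of 1.12 (0.943 to 1.34) and Itga6 one of 1.07 (0.810 to 1.41). In P2ry12-dominant cells Itgb2 had a ratio of 0.895 (0.719 to 1.11), C5ar1 1.01 (0.746 to 1.37) and C3ar1 1.21 (0.975 to 1.496), and 4 of 8 members were under 1, as were 58.1% of 3089 genes. No member passed 1.5-fold in either class, against 4.26% of genes higher and 5.04% lower in Cst7-dominant cells and 3.92% and 8.68% in P2ry12-dominant cells. Within Cst7-dominant cells both Itgb2 and C5ar1 stayed under 1 in all 13 alternatives (0.509 to 0.768 and 0.322 to 0.701).

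**Figure D5:**
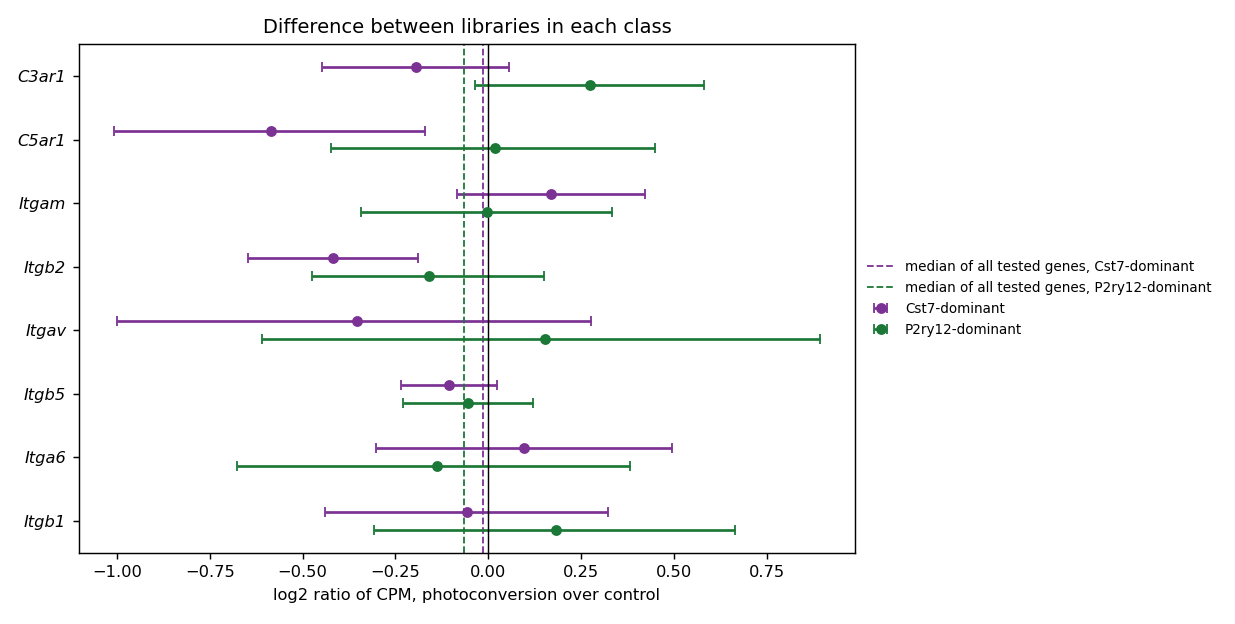
Log2 ratio of CPM in the photoconversion over the control library (horizontal axis) for each member (vertical axis), in Cst7-dominant and P2ry12-dominant cells, with exact 95% intervals as bars and dashed lines at the median of all tested genes. In Cst7-dominant cells the intervals of C5ar1 (ratio 0.667) and Itgb2 (0.749) end below 0 on this log2 axis, and in P2ry12-dominant cells every interval includes 0.

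The class contrast was also read in steps, by the share of Cst7 among a cell's Cst7 and P2ry12 UMIs, in cells with at least 5 of these UMIs; the steps were chosen after seeing the data. Across 4 bins of that share of equal width, from P2ry12-rich to Cst7-rich, with 188, 30, 54 and 121 control cells and 89, 19, 38 and 96 photoconversion cells, C5ar1 stood at 173, 75.9, 86.3 and 89.9 CPM in the control. After photoconversion it stood at 170, 131, 80.8 and 54.3 CPM. In the control the interval of the P2ry12-rich bin lay above those of the other 3, whereas after photoconversion each value was lower than the one before, with overlapping intervals between neighbours. Itgb5 stood at 935, 896, 788 and 735 CPM in the control and at 853, 984, 782 and 663 CPM after photoconversion. The Cst7-rich bin was the lowest for Itgb5 in both libraries, and the second bin, with 30 and 19 cells, had wide intervals. In the control Itgam, like Itgb5, fell at each step, at 251, 220, 209 and 174 CPM. Itgb2 did not, at 311, 311, 334 and 253 CPM. Nor did Itga6 (122, 45.6, 65.8 and 81.8 CPM), Itgb1 (111, 53.2, 79.5 and 87.9 CPM), C3ar1 and Itgav. After photoconversion Itgam did not fall at each step either, at 270, 150, 205 and 202 CPM.

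Pairs of chains that form receptors were seldom seen in the same thinned cell. Itgam and Itgb2 were both detected in 21 of 439 control and 15 of 272 photoconversion cells. Itgb2 was found in 27.3% of control cells with Itgam (17.7 to 38.6%) and 21.3% of those without (17.2 to 25.9%), and in 26.8% (15.8 to 40.3%) and 18.5% (13.6 to 24.4%) after photoconversion, with overlapping intervals. C5ar1 was found in 17.7% of control cells with C3ar1 (10.0 to 27.9%) and 6.67% of those without (4.32 to 9.76%), and in 13.2% and 5.94% after photoconversion. Itgb5 was found in 61.1% of control cells with Itgav and 52.7% without, and in 64.3% and 50.4% after photoconversion. Each share was higher beside the other gene of the pair. The intervals overlapped except for C3ar1 and C5ar1 in the control, which are separate receptors and not chains of one. These cells share a library and a class makeup, the pairs were chosen after seeing the data, and the shares are a description.

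Of other complement genes measured in both libraries, 3 of 4 regulators and other receptors had class ratios under 1 in both. So had 3 of 3 components, all of them chains of C1q. Among all tested genes the share was 51.4%. Of 14 complement regulators and other receptors 4 were measured in both libraries (at least 50 UMIs over the classes in each), and Cr1l, which limits C3 convertases in the mouse, was the only one at least 1.5-fold lower in both, at 0.455 (0.345 to 0.599) and 0.648 (0.453 to 0.939). Of all 3377 genes so measured, 19.8% were at least 1.5-fold lower in both and 8% higher. Calreticulin, Calr, had class ratios of 0.848 and 0.802. Of 12 complement components only the 3 C1q chains were measured in both, all 3 under 1 and none past 1.5-fold in both. The other components had too few UMIs, so these values do not speak for the rest of the cascade. C1qa, a chain of the initiating C1q, had ratios of 0.664 (0.648 to 0.681) and 0.700 (0.679 to 0.722), and C1qb 0.834 and 0.826. The median log2 class ratio of the 3 components was -0.44 in the control and -0.42 after photoconversion. That of the regulators and other receptors was -0.29 over the 5 measured in the control and -0.33 over the 4 measured after photoconversion.

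Of 15 signalling partners of the complement receptors, 10 were measured in both libraries. Of these, 5 were at least 1.5-fold lower in Cst7-dominant cells of both and 1 higher, against 19.8% and 8% of 3377 genes. The Src-family kinase Lyn stood at 0.388 (0.328 to 0.460) and 0.355 (0.288 to 0.437). The G-protein alpha chain Gna15 had ratios of 0.341 and 0.463, the receptor arrestin Arrb2 0.430 and 0.566 and the don't-eat-me ligand Cd47 0.502 and 0.556. The adaptor Tyrobp (DAP12) was the higher one, with ratios of 2.26 (2.19 to 2.34) and 2.16 (2.07 to 2.25), while the CD47 receptor Sirpa had 0.652 and 0.702. The list's median log2 class ratio was -0.62 over the 11 partners measured in the control and -0.67 over the 10 measured after photoconversion. All tested genes had -0.29 and -0.15. The list medians rest on different sets of genes, so their order between the libraries is not read.

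Of 22 integrin activators and adaptors 10 were measured in both libraries. None passed 1.5-fold the same way in both, against 19.8% of 3377 genes lower and 8% higher. Apbb1ip (RIAM), which recruits talin to integrins, had ratios of 0.660 and 0.803, and the GTPase Rap1b 0.628 and 0.726. The median was -0.36 over the 13 genes measured in the control and -0.10 over the 10 measured after photoconversion. Of 21 other integrin chains Itgax alone was measured in both. Itgb3, another beta partner of alpha v, had 69 UMIs in all, with a level of 16.1 CPM in control and 16.5 CPM in photoconversion cells.

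Among 19 integrin ligands and matrix genes 5 were measured in both libraries. Of these, 3 were at least 1.5-fold lower in Cst7-dominant cells of both and 1 higher, against 19.8% and 8% of 3377 genes. Osteopontin, Spp1, which alpha v integrins bind, was 1.5-fold or more higher in both, at 16.7 (9.22 to 33.8) and 24.2 (13.5 to 48.8). Icam1, a ligand of the CD18 integrins, was lower at 0.320 (0.219 to 0.463) and 0.288 (0.194 to 0.425). F11r, a junctional adhesion molecule, had ratios of 0.457 and 0.546, and Tgfb1, whose latent form alpha v integrins bind, 0.632 and 0.627. The ligands so named had class ratios on either side of 1, whereas Itgav and Itgb5 lay under 1 in both libraries.

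By correlation of log2(UMIs + 1) across thinned cells, ranked by the lower of the library values over 968 genes, the genes nearest to Itgb5 included C1qa (r = 0.29 over 439 control cells and 0.24 over 272 photoconversion cells) and Ctss (0.24 and 0.24). For Itgb2 they were Ctsl (0.20 and 0.24), Psap (0.19 and 0.30) and Ctss (0.19 and 0.27). Those of C3ar1 included Malat1 (0.19 and 0.18) and Hspa5 (0.14 and 0.26), and those of Itgam were Cst3 (0.17 and 0.20), Malat1 (0.16 and 0.26) and Tgfbr1 (0.15 and 0.18). All of these correlations were weak, in cells that share a library and a depth, and they are given as descriptions. C5ar1, Itgav, Itga6 and Itgb1 had fewer than 200 UMIs in at least 1 library and were not ranked.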

How the data were processed

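The authors deposited unnormalised UMI counts, as 1 matrix of genes by barcodes for each group; per the file headers they were made with Cell Ranger 3.0.2, and per the submitters' processing notes bcl2fastq and mm10 were used. A table of the whole series was not used here. Kept barcodes had 200 or more detected genes and no more than 10% of UMIs from mitochondrial genes, and doublets were not removed. UMIs were summed per library and class and scaled to 1000000 UMIs (CPM). Levels carry exact Poisson, ratios conditional binomial and shares Clopper-Pearson intervals (95%, scipy 1.17.1). A ratio of ratios carries a normal approximation on the log scale. Only the conditional binomial interval was tried on simulated data. These were Poisson sums without spread between cells, so its coverage with UMIs held by few cells was not tested. With 1 library per group no test was made. A fold of 1.5 stands in for one, over genes with at least 50 UMIs. The scalings of edgeR 4.0.16 (TMM) and DESeq2 1.42.0 (median-of-ratios) were alternatives. Gene coordinates come from GENCODE.

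The members, lists and markers were chosen with earlier results of these data known, so no list count is independent support. Named genes are the members, from each list the 2 most abundant and up to 4 more past 1.5-fold between classes in both libraries, and the first 3 nearest genes of each ranked member. A disease-associated marker without a match is not analysed here. The values of some genes in these lists are not reported here. The cells in each sum were pooled from 3 mice, whose share is unknown.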

Additional observations from a re-analysis of the deposited data

Results flagged for a closer look

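For 6 members the photoconversion over control ratio lay on opposite sides of 1 in Cst7-dominant and P2ry12-dominant cells. The size is given as the ratio of the Cst7-dominant to the P2ry12-dominant library ratio, with its counting interval, and the difference was not tested. This interval is a normal approximation on the log scale and not an exact one. It was 0.723 (0.552 to 0.946) for C3ar1, with library ratios of 0.874 and 1.21, and 0.659 (0.440 to 0.986) for C5ar1, with 0.667 and 1.01. For Itgav it was 0.703 (0.369 to 1.34) and for Itgb1 0.847 (0.561 to 1.28), both with the lower ratio in Cst7-dominant cells. Itgam, at 1.13 (0.847 to 1.498), and Itga6, at 1.18 (0.757 to 1.83), had the lower ratio in P2ry12-dominant cells. Several of these sides rest on a ratio close to 1, such as 0.998 for Itgam in P2ry12-dominant cells. The C5ar1 ratio there ran from 0.731 to 1.35 over the alternatives, and the C3ar1 ratio in Cst7-dominant cells from 0.819 to 1.24. In P2ry12-dominant cells the C3ar1 ratio ran from 0.933 to 1.29. It fell under 1 without the 10 richest cells and in cells of 2000 to 8000 UMIs. Among P2ry12-dominant photoconversion cells, 1 cell held 19 of 148 C3ar1 UMIs and the 10 richest held 44.6%.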

How the results depend on the processing

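Of 496 ratios of single members under alternatives, 416 stayed within the counting interval of the value reported and 50 lay on the other side of 1 from it. Among those 50, the interval reported left out 1 only for the Itgb5 class ratio in the control, which turned to 1.001 with median-of-ratios scaling. The count of members 1.5-fold apart between libraries went from 0 to 1 without the 10 richest cells of each gene. The count 1.5-fold lower between classes in both libraries went from 1 (19.8% of all genes) to 0 with TMM (10.6%), median-of-ratios (10.2%) or a 2-fold limit (7.23%), and to 6 with cells weighed equally (23.9%). It went to 2 with at most 5% mitochondrial UMIs (18%), thinning to 1000 UMIs (20.1%), classes assigned after thinning (20.2%), cells of 2000 to 8000 UMIs (21.5%), or without the deepest 5% of cells (19.4%). The members' median log2 ratio between libraries moved to -0.34 with cells weighed equally. The class median in the control moved to -0.11 with median-of-ratios and -0.99 with cells weighed equally. After photoconversion it moved to -0.95 with cells weighed equally, -1.06 after thinning, -1.16 with classes assigned after thinning and -1.01 in the depth band. Leaving out cells with 2 or more UMIs of other leukocyte markers, chosen after seeing the data, moved no summary past its limit. That limit was the median half-width of the single-member intervals for a median and 1.5-fold for a count. The causes of these moves were not tested. With 1 library per group no library could be left out. No paired analysis was possible because each group is 1 pooled library. Depth limits Itgav most, with 99 and 63 UMIs.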

Other observations

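Barcodes that were not kept as cells carried the members too. In those with fewer than 200 genes (1340 in the control and 1608 after photoconversion), Itgb5 stood at 640 CPM (517 to 784) and 443 CPM (334 to 577), and C3ar1 at 116 and 113 CPM. Itgav had 6 and 13 UMIs there, 40.9 CPM (15.0 to 89.0) and 105 CPM (55.8 to 179), with overlapping intervals. In barcodes over 10% mitochondrial UMIs, C5ar1 stood at 184 CPM (111 to 287) in 105 control barcodes and 30.5 CPM (6.28 to 89.1) in 75 photoconversion barcodes, from 19 and 3 UMIs. With fewer than 200 genes C5ar1 had 9 UMIs in each library, at 61.3 CPM (28.03 to 116) and 72.5 CPM (33.2 to 138), and Itgb2 stood at 232 CPM (160 to 324) and 258 CPM (176 to 364). Cells tied between Cst7 and P2ry12 held 27 Itgb2 UMIs in the control (234 CPM, 154 to 340) and 1 after photoconversion (25.8 CPM, 0.653 to 144). Monocyte markers had 135 UMIs in the tied control cells and 2 in the tied photoconversion cells, and their part in the Itgb2 value was not tested.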
